A study of Mus musculus with 13 samples.

Results

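The comparison described here is a difference of differences: the knockout effect in a Pkd1 model of polycystic kidney disease minus the knockout effect in a Pkd2 model, taken gene by gene from kidney RNA-seq. All 8 kidney libraries of the 13 in the study enter it, and no gene was selected beforehand, so its members are the 28183 genes listed, of which 14637 passed a filter on low values and were tested. In the Pkd1 model, knockouts (KSP/Cre+;Pkd1f/f) and controls (KSP/Cre-;Pkd1f/f) were at postnatal day 10. For the Pkd2 model, knockouts (Pkhd1/Cre+;Pkd2f/f) and controls (Pkhd1/Cre-;Pkd2f/f) were at postnatal day 20. Each of the 4 groups had 2 libraries, all mice were C57BL/6, and all carried a floxed polycystin gene, so that controls differ from knockouts by the Cre transgene. KSP/Cre is driven by the promoter of kidney-specific cadherin, active along the tubule epithelium, and Pkhd1/Cre by a promoter active mainly in collecting ducts, so cells outside those segments keep the floxed gene. The deleted gene, the Cre driver and the age all differ between the models and cannot be told apart in any value below. The labels do not say whether the libraries of a group came from separate animals, and where they did not, the spread that p-values are set against may be technical.

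Polycystin-1 and polycystin-2, the products of Pkd1 and Pkd2, form a receptor-channel complex on the primary cilium of tubule cells, and loss of either lets tubules widen into cysts. Cyst growth is accompanied by proliferation of the lining epithelium, by injury markers in the tubules, and by macrophages and matrix in the tissue between them. The mouse kidney is still maturing during the weeks after birth: nephron formation ends, proliferation declines and transporters and oxidative enzymes increase. The contrast asks how far the responses to the loss of the partners of one complex are alike in these models.

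A positive difference means that the knockout effect was the more positive in the Pkd1 model, and a negative one that it was the more positive in the Pkd2 model. Levels are the authors' scaled read values, and effects and differences are on the log2(value + 1) scale, given ± SE. That scale understates changes of low genes and does so unequally where the controls of the models start at different levels. Where 4 pairs of values follow a gene without group names, they are replicates 1 and 2 of the Pkd1 controls, the Pkd1 knockouts, the Pkd2 controls and, last, the Pkd2 knockouts.

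The libraries differed in more than genotype. Their depth ran from 30.7 to 94.4 M recovered reads, mitochondrially encoded transcripts took 22% to 41.4% of the summed values, and small structural RNAs 6.18% to 28.3%. Xist, which is transcribed from the inactive X of females, and the summed Y-linked genes showed that sex was not balanced: Xist was at 0.221 and 416 in Pkd1 controls, 25.3 and 27.7 in Pkd1 knockouts, 346 and 350 in Pkd2 controls, and 1.74 and 449 in Pkd2 knockouts. The Y-linked sums were 155 and 10.4 in Pkd1 controls and 149 and 183 in Pkd1 knockouts. They were 0.104 and 0.0221 in Pkd2 controls, and 169 and 0.0462 in Pkd2 knockouts. The libraries within Pkd1 controls and within Pkd2 knockouts thus did not come from 1 animal. Pkd1 control 2 and both Pkd1 knockouts held Xist and Y-linked transcripts together. Whether these libraries hold RNA of more than 1 animal was not tested. The Pkd2 knockouts were the least alike pair, with a root mean square log2 distance of 0.534 against 0.258 to 0.411 in the other groups. The tissue label was met by its markers: the summed proximal tubule list stood between 1885 and 13447, and the podocyte list between 207 and 540, in every library. Adrenal markers summed to 149 in Pkd2 control 2 and to at most 4.11 in the others.

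Genes that responded in both models moved in the same direction with few exceptions. The 2 effects share no libraries, and across the tested genes, which are not independent replicates, they had a Pearson r of 0.74. With limma and a Benjamini-Hochberg adjusted p below 0.05, 1550 genes (10.6%) were called for the Pkd1 effect, 748 higher (5.11%) and 802 lower (5.48%) in knockouts, and 2587 (17.7%) for the Pkd2 effect, 1397 higher (9.54%) and 1190 lower (8.13%). The 971 genes called in both made up 62.6% of the Pkd1 calls and 37.5% of the Pkd2 calls, and 966 of them moved in the same direction, 521 higher and 445 lower. Over these 971 genes the median size of the effect was 1.16 in the Pkd1 model and 1.2 in the Pkd2 model.

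The difference itself was called for 1 gene of 14637 (0.00683%), Serpina10, on the negative side, with 0 on the positive side. Without Pkd2 knockout replicate 1 the count was 26, without Pkd2 knockout replicate 2 it was 3, without Pkd1 knockout replicate 2 it was 2, and without any one of the other libraries it was 0. It also moved with the tool: DESeq2 on the recovered reads called 184 genes, 70 of them positive, edgeR 5 with 1 positive, and limma 8 with 4 positive after quantile scaling, 27 with 10 positive under a covariate for small structural RNA and 0 under one for Xist. An adjusted p below 0.1 in limma was reached by 23 genes (0.157%), 11 positive and 12 negative, of which 19 were among the DESeq2 calls. An unadjusted p below 0.05 was reached by 1207 genes (8.25%), 439 positive (3%) and 768 negative (5.25%). By size alone, 536 genes (3.66%) differed by at least 1 either way and 54 (0.369%) by at least 2, and 7356 genes (50.3%) had a difference above 0. Counts of signs and of unadjusted p-values in the gene lists below are to be read against these shares. Counts of list members called in a single model are to be read against the shares of all tested genes called. These were 5.11% higher and 5.48% lower in the Pkd1 model, and 9.54% higher and 8.13% lower in the Pkd2 model. The sign was the same in all 16 combinations of 1 library per group for 2892 genes (19.8%). The median 95% interval of a difference reached 0.647 to either side (10th to 90th percentile of genes 0.530 to 0.964), so a gene whose difference missed the threshold was not shown to respond alike. Of the 1207 genes, 522 (43.2%) had effects of opposite sign, 423 had both effects above 0 and 262 both below 0. In 789 of them (65.4%) the Pkd2 effect was the larger in size. These genes were selected on the difference, which favours opposite signs, and the same shares over all tested genes were not computed. Over all tested genes the SD of the effect was 0.556 in the Pkd1 model and 0.644 in the Pkd2 model. Being called in a single model was no test of the difference: of the genes called in the Pkd1 model alone, 238 of 579 had an unadjusted difference p below 0.05, and of those called in the Pkd2 model alone, 537 of 1616 had.

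**Figure D1:**
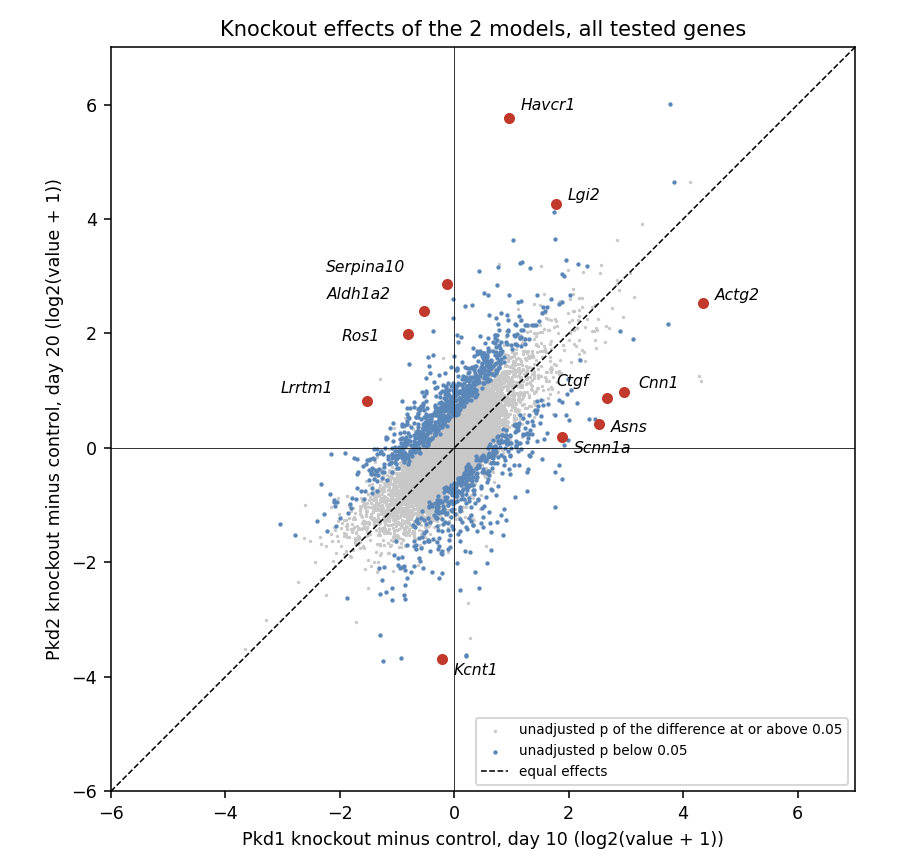
Each point is 1 of the 14637 tested genes, with its Pkd1 effect on the horizontal axis and its Pkd2 effect on the vertical axis (both log2(value + 1), knockout minus control, 2 libraries per group); blue points have an unadjusted difference p below 0.05 and the dashed line marks equal effects. Most genes lie along the line, Serpina10 and Havcr1 lie above it, and Asns, Scnn1a and Kcnt1 below it.

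Serpina10 (ENSMUSG00000061947.8, mm10 chr12:103614786-103631444, minus strand, protein coding) encodes protein Z-dependent protease inhibitor, a plasma serpin that inhibits coagulation factor Xa and is made mainly by the liver. It stood at 6.70 and 8.24 in Pkd1 controls and 6.49 and 6.90 in Pkd1 knockouts, and at 3.69 and 2.96 in Pkd2 controls and 34.1 and 27.3 in Pkd2 knockouts. The Pkd2 knockouts lay above all other libraries, both the one with Xist at 1.74 and the one with Xist at 449, and the Pkd1 groups overlapped. Group means were 30.7 ± 4.81 (SD, n = 2) in Pkd2 knockouts against 3.32 ± 0.519 in their controls, and 6.70 ± 0.286 against 7.47 ± 1.09 in the Pkd1 model. The gene rose by 2.87 ± 0.19 in the Pkd2 model (limma Benjamini-Hochberg adjusted p = 0.00032), its Pkd1 effect was -0.13 ± 0.19 (adjusted p = 0.69), and the difference was -3.005 ± 0.27 (95% interval -3.61 to -2.40, unadjusted p = 1.72e-06, adjusted p = 0.0252). All 16 combinations gave a negative difference. Leaving out single libraries kept the difference between -3.16 and -2.85, and the adjusted p ran up to 0.30 and passed in 2 of these 8 fits, those that left out a Pkd2 knockout (0.0136 and 0.0213). With all libraries it was 0.0801 under a covariate for Xist, 0.0748 without the filter on low values and 0.0556 with a replicate block. In the authors' deposited table, the control-minus-knockout log2 value of Serpina10 is 0.16 for Pkd1 (adjusted p = 0.952) and -3.21 for Pkd2 (adjusted p = 3.53e-13).

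Serpina10 was not alone among genes of plasma proteins. The 3 fibrinogen chain genes Fga, Fgb and Fgg, whose products assemble into the precursor of fibrin, lie next to each other on mouse chromosome 3 and were all higher in Pkd2 knockouts than in every other library. Their upstream sequences are shown because the 3 neighbours moved together. They come from RefSeq (GRCm38.p6), up to 250 bases before the start site, 5′ to 3′ on the gene's strand. Capitals mark matches on either strand to GTTAAT (HNF1 half-site), CTGGGAA (IL-6 response element) or TTCNNNGAA (STAT site).
Fga, chr3:83025903-83026075, plus strand: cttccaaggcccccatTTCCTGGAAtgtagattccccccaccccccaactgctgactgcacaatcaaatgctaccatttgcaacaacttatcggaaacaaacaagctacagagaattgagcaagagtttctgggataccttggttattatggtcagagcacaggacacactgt
Fgb, chr3:83049864-83050113, minus strand: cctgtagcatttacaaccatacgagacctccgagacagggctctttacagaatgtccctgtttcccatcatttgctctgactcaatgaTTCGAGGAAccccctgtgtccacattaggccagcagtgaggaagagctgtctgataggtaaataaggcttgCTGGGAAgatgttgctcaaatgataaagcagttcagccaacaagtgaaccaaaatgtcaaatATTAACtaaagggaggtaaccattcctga
Fgg, chr3:83007474-83007723, plus strand: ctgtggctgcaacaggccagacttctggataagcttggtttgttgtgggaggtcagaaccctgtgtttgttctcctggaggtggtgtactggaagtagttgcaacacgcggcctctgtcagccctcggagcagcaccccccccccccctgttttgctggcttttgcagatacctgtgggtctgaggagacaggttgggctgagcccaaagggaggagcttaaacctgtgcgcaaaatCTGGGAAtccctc
The Fga stretch ends at base 83026075, before a longer first exon in the GENCODE annotation. Fgb held all 3 motifs, at -29, -91 and -162 from its start, Fgg held CTGGGAA at -13, and Fga held the STAT motif at -234 and, in the stretch not printed, GTTAAT at -43. Of 32851 RefSeq promoters, 6.43% held GTTAAT, 9.1% CTGGGAA and 7.02% TTCNNNGAA within 250 bases. A match is a description of the letters and not of binding. A promoter entry for Serpina10 was not used here.

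Fga stood at 5.38 and 6.63 in Pkd1 controls and 2.54 and 12.5 in Pkd1 knockouts, against 7.87 and 7.30 in Pkd2 controls and 42.9 and 60.9 in Pkd2 knockouts. Fgg stood at 0.632 and 0.656, 1.02 and 4.51, 1.46 and 1.5, and 26.9 and 33.0. Both chains rose in the Pkd2 model, Fga by 2.60 ± 0.50 (adjusted p = 0.01) and Fgg by 3.64 ± 0.38 (adjusted p = 0.00098). Fgb, chosen after its values were seen, stood at 1.95 and 2.32, 0.886 and 2.12, 1.61 and 1.04, and 8.30 and 8.83, and rose by 2.05 ± 0.25 in the Pkd2 model (adjusted p = 0.0017). Differences between the models were -2.61 ± 0.71 for Fga (adjusted p = 0.28), -2.61 ± 0.54 for Fgg (adjusted p = 0.16) and -2.42 ± 0.35 for Fgb (adjusted p = 0.085), none past the threshold in limma with all libraries. The Fga value rested on the unlike Pkd1 knockouts: it was -1.65 without replicate 1 of that group and -3.58 without replicate 2, and in the latter fit Fga (adjusted p = 0.0336) and Fgg (0.0332) passed. Fgb passed in 3 of its 22 alternatives, with DESeq2 giving -3.21 (adjusted p = 3.6e-05). The 13 tested members of the liver secreted protein list had 5 positive and 8 negative differences with a median of -0.75, against 0.00 over all tested genes, and 1 was called. The list did not move as a block: Alb (albumin), chosen after its values were seen, stood at 0.730 and 7.22 in Pkd1 controls, 0.434 and 0.783 in Pkd1 knockouts, 18.2 and 11.7 in Pkd2 controls and 0.392 and 0 in Pkd2 knockouts. Its difference was 2.49 ± 0.84 and was 1.36 without Pkd1 control 1 and 3.61 without Pkd1 control 2. Afp (alpha-fetoprotein), chosen in the same way, had one of -1.51 ± 0.32, from 14.6 and 20.0 in Pkd1 controls to 3.68 and 5.61 in Pkd1 knockouts.

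**Figure D2:**
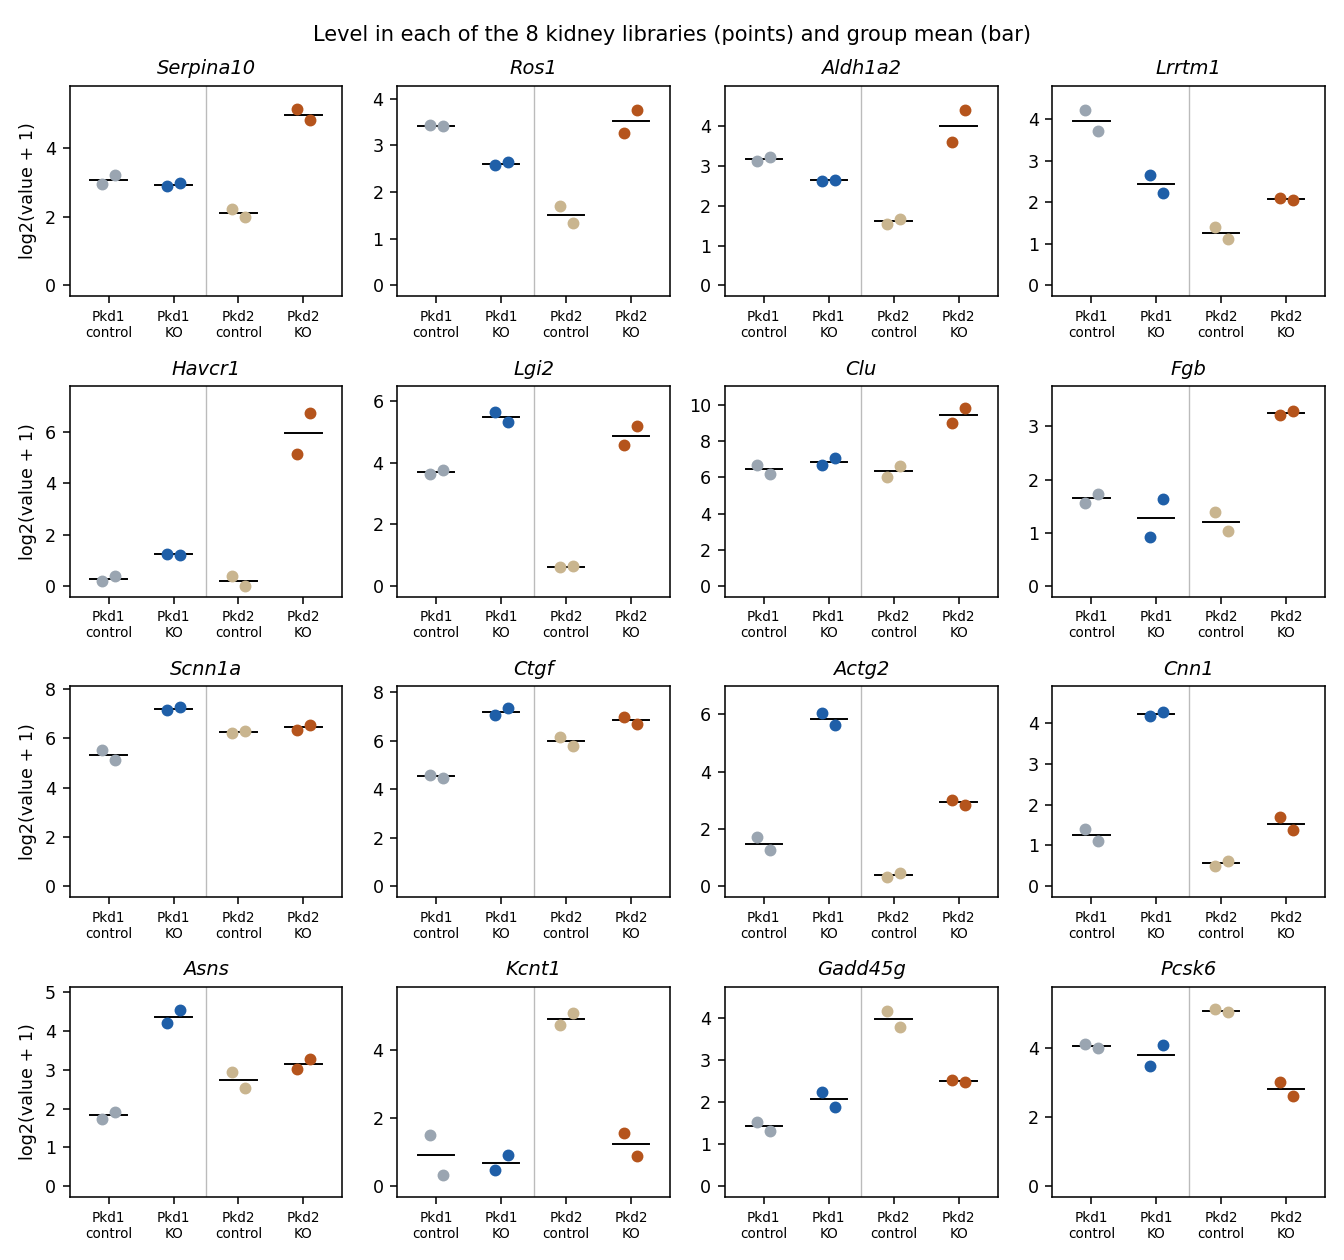
Levels of 16 genes (log2(value + 1), vertical axis) in the Pkd1 and Pkd2 control and knockout (KO) groups, with 1 point per library and a bar at the mean of the 2 libraries. Serpina10 is high in Pkd2 knockouts alone, Ros1 and Lrrtm1 move in opposite directions, and Kcnt1 is high in Pkd2 controls alone.

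Tubule injury genes carried the largest negative difference. Havcr1 encodes KIM-1, a phagocytic receptor of injured proximal tubule cells. It stood at 0.123 and 0.306 in Pkd1 controls, 1.37 and 1.31 in Pkd1 knockouts, 0.286 and 0 in Pkd2 controls, and 34.6 and 106 in Pkd2 knockouts. It was higher in the knockouts of both models, by 0.95 ± 0.42 in the Pkd1 model (adjusted p = 0.19) and 5.77 ± 0.42 in the Pkd2 model (adjusted p = 0.00033), and the difference was -4.81 ± 0.60 (adjusted p = 0.063). Clu encodes clusterin, a secreted chaperone of damaged epithelium. It stood at 102 and 72.2, 101 and 135, 64.3 and 99.2, and 516 and 926, with a difference of -2.66 ± 0.47 (adjusted p = 0.13). Of the 19 tested members of the injury list, 17 had a negative difference, the median was -0.52, and 8 had an unadjusted p below 0.05 on the negative side (background 5.25%) and 0 on the positive side. The Havcr1 difference passed without either Pkd2 knockout library (-5.61 and -4.02, adjusted p = 0.00075 and 0.0092). In the single models, 8 of the 19 were called higher in Pkd1 knockouts and 16 in Pkd2 knockouts, with median effects of 0.85 and 1.61. Over the alternatives tried, the median of the list stayed between -0.85 and -0.41.

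Several other genes had the more positive effect in the Pkd2 model. Aldh1a2, which makes retinoic acid, went from 1.92 and 2.16 to 11 and 20.1 in the Pkd2 model and from 7.65 and 8.27 to 5.17 and 5.23 in the Pkd1 model, a difference of -2.92 ± 0.35 (adjusted p = 0.063). The Pkd2 controls had the lowest level of this gene, and the Pkd2 knockouts passed the Pkd1 controls. Lgi2, a secreted leucine-rich repeat protein, rose in both models, from 11.5 and 12.6 to 49.1 and 39.4 with Pkd1 loss and from 0.520 and 0.551 to 22.6 and 35.6 with Pkd2 loss (difference -2.48 ± 0.32, adjusted p = 0.063). The Lgi2 levels of the Pkd2 knockouts stayed below those of the Pkd1 knockouts, and edgeR gave a difference of -3.88 (adjusted p = 0.024). Dio2, the deiodinase that activates thyroid hormone, rose in both as well, from 1.17 and 1.42 to 5.99 and 7.45 and from 1.12 and 0.993 to 20.7 and 58.1 (difference -2.38 ± 0.55, adjusted p = 0.19). Clca3a2, of the calcium-activated chloride channel regulator family, stood at 2.34 and 1.02 in Pkd1 knockouts and 6.93 and 28.1 in Pkd2 knockouts, with all controls below 1 (difference -2.40 ± 0.71, adjusted p = 0.34). That value was -3.33 without Pkd2 knockout 1 (adjusted p = 0.022) and -1.46 without Pkd2 knockout 2. Its neighbour in that family, Clca3a1, chosen after its values were seen, had a difference of -2.19 ± 0.28 (adjusted p = 0.063). Near-identical family members can share reads, so the split between these 2 genes is uncertain.

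Only 5 genes were called by limma in both models in opposite directions, and all 5 fell with Pkd1 loss and rose with Pkd2 loss: Ros1, Lrrtm1, Mdk, Olfml3 and Syndig1. The list depends on the fit. In the authors' deposited values, Lrrtm1 and Syndig1 had an adjusted p below 0.05 in both models, and Ros1, Mdk and Olfml3 did not. Other genes below 0.05 in both there, among them Scd1 and Prss35, rose with Pkd1 loss and fell with Pkd2 loss. Ros1, a receptor tyrosine kinase, stood at 9.80 and 9.62 in Pkd1 controls and 4.98 and 5.25 in the knockouts, and at 2.26 and 1.52 in Pkd2 controls and 8.63 and 12.6 in the knockouts. It fell by 0.81 ± 0.21 (adjusted p = 0.046) and rose by 2.00 ± 0.21 (adjusted p = 0.001), a difference of -2.81 ± 0.30 (adjusted p = 0.0586, the smallest after Serpina10). The other 4 were chosen after their values were seen. Lrrtm1, a synaptic adhesion protein, stood at 17.6 and 12.2, 5.33 and 3.64, 1.66 and 1.17, and 3.28 and 3.19 (difference -2.35 ± 0.33, adjusted p = 0.066). Mdk, which encodes the growth factor midkine, stood at 59.4 and 48.6, 37.8 and 27.9, 7.09 and 7.37, and 12.7 and 14.2 (difference -1.52 ± 0.27, adjusted p = 0.13). In these 3 genes the day 10 controls were several times above the day 20 controls, and the knockouts of the models lay closer to each other than the controls for Lrrtm1 and Mdk, with the order reversed for Ros1. Olfml3 had a difference of -1.53 ± 0.29 (adjusted p = 0.15), and Syndig1, at or below 1.06 in every library, one of -1.73 ± 0.26 (adjusted p = 0.085). At such levels the size depends on the scale: for Syndig1 it was -5.98 with a pseudocount of 0.1 and -10.8 in edgeR (adjusted p = 0.056 and 0.054).

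Macrophage markers rose in both models, with the larger median effect in the Pkd2 model. Of 20 tested, 15 were called higher in Pkd1 knockouts and 19 in Pkd2 knockouts, with median effects of 1.29 and 2.25. The median difference was -0.84, 19 of 20 differences were negative, 12 had an unadjusted p below 0.05 on that side, and 0 were called by limma. Mpeg1, a pore-forming protein of phagocytes, stood at 1.91 and 2.49 in Pkd1 controls, 4.72 and 3.87 in Pkd1 knockouts, 3.17 and 3.11 in Pkd2 controls, and 15.9 and 22.6 in Pkd2 knockouts (difference -1.54 ± 0.30, adjusted p = 0.15 in limma and 0.0191 in DESeq2). Cd14, a coreceptor for bacterial lipopolysaccharide, stood at 0.779 and 0.503, 3.21 and 3.68, 1.25 and 0.993, and 11 and 14.2 (difference -1.23 ± 0.27, adjusted p = 0.17). The summed list was at 335 and 330.4 in Pkd1 knockouts and 445 and 569 in Pkd2 knockouts, with the 4 controls between 81.5 and 92.4. In whole kidney RNA, more cells of a type and more RNA per cell cannot be told apart.

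Complement and interferon genes leaned the same way with smaller effects. Of 15 complement genes, 13 had a negative difference, 7 of them at an unadjusted p below 0.05, with a median of -0.66. C3, the central component, stood at 2.99 and 2.54, 6.11 and 11.4, 7.51 and 12.2, and 73.1 and 118 (difference -1.82 ± 0.47, adjusted p = 0.26), and Cfi, the protease that degrades C3b, had a difference of -1.50 ± 0.33 (adjusted p = 0.17). Of 23 interferon response genes, 22 had a negative difference and 4 an unadjusted p below 0.05, with a median of -0.48. Rsad2 (viperin) fell in both models, from 29.9 and 30.9 to 9.43 and 8.80 and from 57.0 and 46.4 to 32.6 and 28, with the larger fall in the Pkd1 model and a difference of -0.89 ± 0.24 (adjusted p = 0.28). Oas2 rose in both, by 1.14 ± 0.26 and 2.31 ± 0.26, with a difference of -1.17 ± 0.37 (adjusted p = 0.37) that was -0.52 in edgeR.

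Cell cycle genes differed in baseline as well as in effect. Summed mitosis genes stood at 335 and 327 in the day 10 controls and 88.4 and 82.5 in the day 20 controls, and at 530.4 and 429 in Pkd1 knockouts and 193 and 287 in Pkd2 knockouts. Of 20 tested, 3 were called higher in Pkd1 knockouts and 18 in Pkd2 knockouts. Of the differences, 19 were negative, 9 of them at an unadjusted p below 0.05, and the median difference was -0.70. Cenpe, a kinetochore motor, stood at 9.24 and 10.4, 16 and 13.2, 2.29 and 1.90, and 6.76 and 11.1 (difference -1.13 ± 0.33, adjusted p = 0.33). Tpx2, a spindle assembly factor, rose in both models, by 0.75 (adjusted p = 0.042) and 1.58 (adjusted p = 0.0017), with a difference of -0.83 ± 0.27 (adjusted p = 0.41). The mitosis sum of the Pkd2 knockouts thus stayed below that of the day 10 controls while the median effect of the list was the larger, 1.05 against 0.42. DNA replication genes had a median difference of -0.34, with 18 of 20 negative and 2 at an unadjusted p below 0.05; Mcm6, a helicase subunit, had the smallest p (difference -0.78 ± 0.25, adjusted p = 0.39).

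Among nephron segments, intercalated cell and podocyte genes had the more negative median effect in the Pkd1 model. Slc26a4 (pendrin), the chloride-bicarbonate exchanger of type B intercalated cells, stood at 4.82 and 5.60, 0.781 and 0.825, 8.99 and 10.9, and 4.91 and 5.06, and fell in both models (difference -0.91 ± 0.24, adjusted p = 0.27, and -1.70 in DESeq2, adjusted p = 0.0117). Rhbg, an ammonium transporter, fell by 2.06 and 1.37 (difference -0.69 ± 0.26, adjusted p = 0.48). Of 17 intercalated cell genes, 10 were called lower in each model, with median effects of -1.08 and -0.89. For 7 the difference was negative at an unadjusted p below 0.05, and the median difference was -0.42. Of 12 podocyte genes, 8 were called lower in Pkd1 knockouts and 5 in Pkd2 knockouts, with median effects of -0.89 and -0.42. Of their differences, 11 were negative, 4 at an unadjusted p below 0.05, and the median was -0.43. Cdkn1c (p57), a cell cycle inhibitor of mature podocytes, stood at 137 and 124, 18.2 and 18.2, 15 and 17.9, and 6.22 and 4.12 (difference -1.26 ± 0.28, adjusted p = 0.17). Ptpro, a podocyte phosphatase, stood at 24.1 and 27.0, 10.3 and 10.2, 14.1 and 14.8, and 11 and 10.1 (difference -0.81 ± 0.22, adjusted p = 0.28). Of 30 proximal tubule genes, 16 were called lower in each model, 1 had an unadjusted difference p below 0.05, and the median difference of -0.25 turned positive, up to 0.19, under some of the alternatives.

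The positive side held genes of several kinds. The first were genes that rose in Pkd1 knockouts and were not called in Pkd2 knockouts. Asns, the asparagine synthetase and a target of the stress factor ATF4, stood at 2.35 and 2.78 in Pkd1 controls, 17.3 and 22 in Pkd1 knockouts, 6.65 and 4.81 in Pkd2 controls, and 7.15 and 8.69 in Pkd2 knockouts. It rose by 2.53 ± 0.21 in the Pkd1 model (adjusted p = 0.00073), its Pkd2 effect was 0.41 ± 0.21 (adjusted p = 0.21), and the difference was 2.11 ± 0.30 (adjusted p = 0.066). Of 20 ATF4 targets, 17 had a positive difference, 9 at an unadjusted p below 0.05 (background 3%), and the median was 0.60, between 0.34 and 0.69 over the alternatives. Among them 7 were called higher and 1 lower with Pkd1 loss, against 3 and 3 with Pkd2 loss. Vldlr, a lipoprotein receptor, had the next smallest p in that list (difference 0.98 ± 0.29, adjusted p = 0.33).

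Scnn1a encodes the alpha subunit of the epithelial sodium channel of principal cells, where aldosterone controls sodium uptake. It stood at 44.6 and 34.0 in Pkd1 controls and 141 and 153 in Pkd1 knockouts, and at 72.7 and 78.7 in Pkd2 controls and 81.0 and 91.9 in Pkd2 knockouts, the 4 groups not overlapping. The rise of 1.89 ± 0.18 in the Pkd1 model (adjusted p = 0.0014) compares with 0.19 ± 0.18 in the Pkd2 model (adjusted p = 0.52), a difference of 1.70 ± 0.26 (adjusted p = 0.096). Avpr2, the vasopressin receptor of the collecting duct, rose in both, from 3.75 and 2.67 to 12.6 and 15.4 and from 9.23 and 7.08 to 15.4 and 14.9 (difference 1.01 ± 0.29, adjusted p = 0.32). The principal cell list as a whole did not lean either way, with 7 positive and 8 negative differences and a median of -0.08.

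Contractile and matrix-associated genes split. Actg2, the smooth muscle gamma-actin, stood at 2.27 and 1.4 in Pkd1 controls and 65.4 and 48.6 in Pkd1 knockouts, and at 0.260 and 0.375 in Pkd2 controls and 7.06 and 6.13 in Pkd2 knockouts. It rose in both models, by 4.36 ± 0.22 and 2.53 ± 0.22, with a difference of 1.83 ± 0.31 (adjusted p = 0.12) that was 0.89 with a pseudocount of 0.1 and 0.58 in edgeR. Cnn1 (calponin), chosen after its values were seen, rose from 1.66 and 1.16 to 17.2 and 18.4 and from 0.416 and 0.529 to 2.24 and 1.60 (difference 1.99 ± 0.27, adjusted p = 0.063), and Lmod1 (leiomodin), chosen in the same way, had a difference of 1.72 ± 0.30 (adjusted p = 0.12). Dcn (decorin), a collagen-binding proteoglycan, went the other way, from 81.4 and 71.7 to 63.8 and 43.8 with Pkd1 loss and from 46.4 and 39.1 to 78.1 and 84.4 with Pkd2 loss (difference -1.44 ± 0.30, adjusted p = 0.16). In the matrix and myofibroblast list, 16 of 30 genes were called higher in each model. The median effects were 1.05 and 0.96, and the median difference was -0.20. Acta2 (smooth muscle alpha-actin) and Tagln (transgelin), contractile genes of that list, were called higher in both models. Their differences were -0.32 ± 0.29 (adjusted p = 0.95) and 0.41 ± 0.35 (adjusted p = 0.93). The larger Pkd1 effect of Actg2, Cnn1 and Lmod1 was thus not shown for contractile genes as a set. Ctgf, a matricellular target of YAP and TAZ, rose in both models, from 23.2 and 21.2 to 133 and 163 and from 70.3 and 54.4 to 126 and 103 (difference 1.80 ± 0.28, adjusted p = 0.096). Ctgf and Igfbp3 (difference 1.17 ± 0.28, adjusted p = 0.22) had the smallest p in their list of 23 YAP and TAZ targets, whose median difference was -0.15 and turned positive, up to 0.04, under some of the alternatives.

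Immediate early genes, which respond within minutes to stimuli and to handling of tissue, were called higher for 13 of 24 genes in the Pkd1 model and 12 in the Pkd2 model. The shares called higher over all tested genes were 5.11% and 9.54%. The median difference of the immediate early list was 0.21, with 6 positive and 2 negative at an unadjusted p below 0.05, and reached -0.10 under the alternatives. Ier3 rose with Pkd1 loss (10.1 and 8.86 to 25.3 and 19) and had a difference of 1.43 ± 0.29 (adjusted p = 0.16), and Arc one of 1.67 ± 0.38 (adjusted p = 0.19), 2.51 in DESeq2 (adjusted p = 0.0384).

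A further group on the positive side was high in the day 20 controls and fell with Pkd2 loss, and was not called in the Pkd1 model. Kcnt1, a sodium-activated potassium channel, stood at 1.84 and 0.262 in Pkd1 controls, 0.382 and 0.910 in Pkd1 knockouts, 26 and 33.1 in Pkd2 controls, and 1.99 and 0.856 in Pkd2 knockouts. The Pkd2 controls lay above the other 6 libraries, which overlapped, and the difference was 3.47 ± 0.54 (adjusted p = 0.096). Pcsk6, a proprotein convertase, stood at 16.2 and 15, 10.2 and 16.1, 33.7 and 31.9, and 7.01 and 5.11 (difference 2.01 ± 0.32, adjusted p = 0.11). Gadd45g, a stress-response gene, stood at 1.89 and 1.51, 3.77 and 2.69, 17.1 and 12.8, and 4.82 and 4.62 (difference 2.10 ± 0.29, adjusted p = 0.066), and Rasgef1b at 4.40 and 5.34, 6.2 and 10.5, 57.9 and 31.5, and 16.3 and 8.44 (difference 2.42 ± 0.52, adjusted p = 0.17). Cacna2d2, a calcium channel subunit chosen after its values were seen, was also high in Pkd2 controls, with 14.3 and 14.4 there and at most 2.49 elsewhere (difference 2.74 ± 0.36, adjusted p = 0.063, and 4.26 in edgeR, adjusted p = 0.16). In the Pkd1 model its knockouts (0.816 and 0.212) lay below its controls (2.49 and 1.29), an effect of -0.93 ± 0.26 (limma adjusted p = 0.052). For Kcnt1, the Pkd1 controls were as low as the Pkd2 knockouts.

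Oxidative phosphorylation, glycolysis and distal tubule lists leaned the same way. Nuclear oxidative phosphorylation genes all had a positive difference (34 of 34, background 50.3%), with a median of 0.60 and 4 at an unadjusted p below 0.05 (background 3%), and 3 were called lower with Pkd1 loss against 29 with Pkd2 loss. Ribosomal protein genes were nearly as uniform in sign, with 31 of 32 positive and a median of 0.31. Over the alternatives the medians ran from 0.20 to 1.08 for oxidative phosphorylation, 0.19 to 0.98 for glycolysis and 0.13 to 0.63 for the distal tubule list. The summed oxidative phosphorylation list stood at 4870 and 5230 in Pkd1 controls, 3529 and 3334 in Pkd1 knockouts, 8266 and 8123 in Pkd2 controls, and 4768 and 2756 in Pkd2 knockouts. Cycs (cytochrome c) stood at 68.0 and 96.6, 101 and 83.2, 183 and 148, and 103 and 74.5 (difference 1.08 ± 0.35, adjusted p = 0.39), and Uqcrfs1, the Rieske subunit of complex III, had a difference of 0.89 ± 0.33 (adjusted p = 0.48), 0.59 without Pkd2 knockout 2. Of 18 glycolysis genes, 17 had a positive difference, 3 at an unadjusted p below 0.05, with a median of 0.58, and Pfkp, a phosphofructokinase, rose with Pkd1 loss (37.7 and 28.2 to 60.2 and 92.7) with a difference of 1.19 ± 0.36 (adjusted p = 0.35). Among 13 genes of the distal convoluted and connecting tubule, 11 had a positive difference, 3 at an unadjusted p below 0.05, with a median of 0.50. Calb1 (calbindin), a calcium buffer of that segment, stood at 52.7 and 64.6, 21.9 and 45.5, 123 and 167, and 30.9 and 22.6 (difference 1.53 ± 0.46, adjusted p = 0.35), and its difference was 1.02 without Pkd1 knockout 2. Pvalb (parvalbumin), at or near 0 in Pkd1 knockouts, had a difference of 1.24 ± 0.35 (adjusted p = 0.32) on the log2(value + 1) scale that was negative, at -2.24, in edgeR's fit of the recovered reads.

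Clock and glucocorticoid-responsive genes had the largest positive medians after the fat list among lists with at least 5 tested members. Of 18 circadian genes, 15 had a positive difference, 10 of them at an unadjusted p below 0.05, and the median was 0.87, between 0.59 and 0.92 over the alternatives. Dbp, a clock output factor, stood at 7.87 and 8.46, 4.41 and 4, 26.6 and 38.7, and 7.57 and 4.51 (difference 1.45 ± 0.35, adjusted p = 0.23), and Hlf, of the same family, fell in both models (difference 0.95 ± 0.21, adjusted p = 0.18). The hour of dissection was not among the labels used here. Of 12 glucocorticoid response genes, 9 had a positive difference, 7 of them at an unadjusted p below 0.05, 2 of the 3 negative ones (Cdkn1c and Hsd11b2) had such a p as well, and the median was 1.16. Fkbp5, a chaperone induced by glucocorticoids, stood at 9.69 and 12.8, 27.6 and 37.5, 20.4 and 17.2, and 19.4 and 21.5 (difference 1.33 ± 0.30, adjusted p = 0.17). Beside these lists, adrenal markers were high in Pkd2 control 2: Hsd3b1, a steroid-synthesis enzyme, stood at 1.51 and 63.5 in Pkd2 controls and at most 0.434 elsewhere (difference 3.84 ± 1.61, adjusted p = 0.56, and 12.8 in edgeR). The summed glucocorticoid list was at 948 in Pkd2 control 1 and 651 in Pkd2 control 2, the library with the adrenal markers. Without that library the median difference was 1.22 for the glucocorticoid list and 0.83 for the circadian list. The part of adrenal tissue in the differences of these lists was not tested.

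Fat markers were uneven in the same libraries. Ucp1, the uncoupling protein of brown fat, stood at 6.23 and 1.86 in Pkd1 controls, 9.06 and 1.71 in Pkd1 knockouts, 15.2 and 24.4 in Pkd2 controls, and 1.71 and 0 in Pkd2 knockouts (difference 3.83 ± 0.97, adjusted p = 0.25). All 7 tested fat genes had a positive difference, 6 at an unadjusted p below 0.05, with a median of 2.37. The summed list ran from 65.2 to 82.1 in the Pkd1 model, was 113 and 162 in Pkd2 controls, and 75.7 and 26 in Pkd2 knockouts. The part of fat in the other differences was not tested. Scd1, a fatty acid desaturase abundant in fat, stood at 8.81 and 3.00, 40.7 and 9.82, 15.1 and 50.6, and 15 and 11.4, and its difference of 2.79 ± 1.00 (adjusted p = 0.45) rested on single high libraries in 2 groups and was 1.82 without Pkd1 knockout 1. Aspn (asporin) and Prss35 (a secreted serine protease-like protein) complete the 10 largest positive differences, at 2.18 ± 0.67 and 2.00 ± 0.74, each with 1 high Pkd1 knockout library, 34.6 against 16 and 36.2 against 8.67. Without Pkd1 knockout 2 the Prss35 difference was 1.03.

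**Figure D3:**
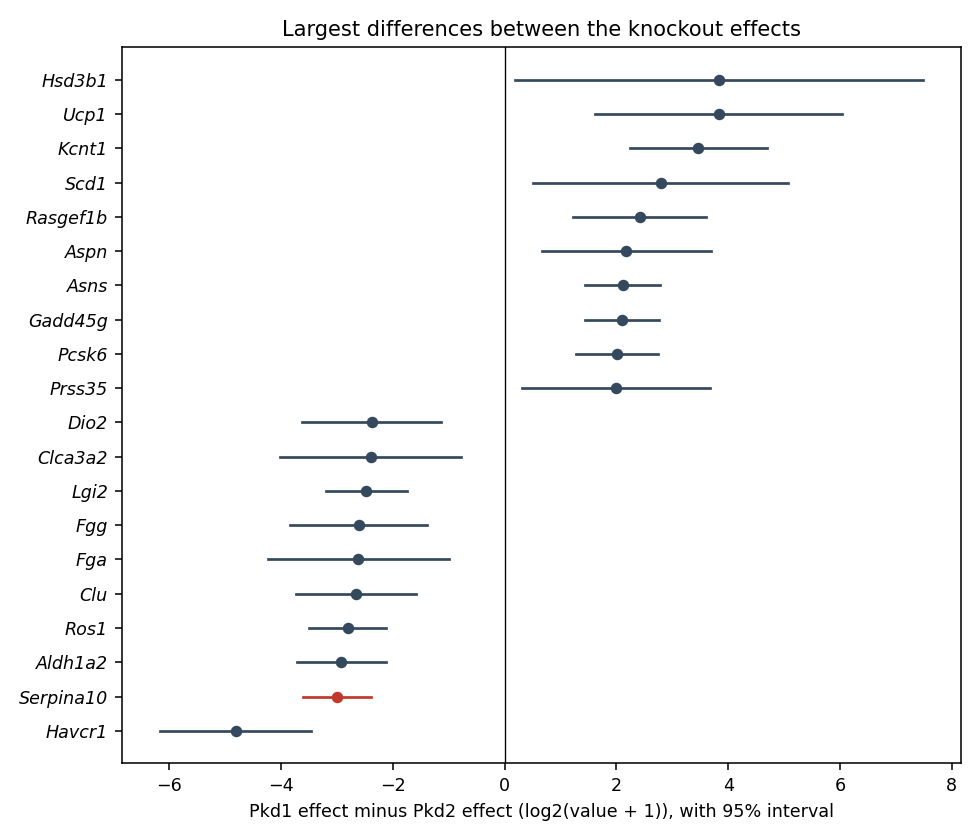
The 20 genes with the largest positive and negative differences by the naming rule (points, Pkd1 effect minus Pkd2 effect on the log2(value + 1) scale, horizontal axis) with 95% intervals from limma; the called gene is red. Serpina10 has one of the narrower intervals, -3.61 to -2.40, and Hsd3b1 the widest, 0.19 to 7.48.

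No difference was called for the targeted genes or for the pathways named in the study. Pkd1 itself stood at 31.1 and 22.7, 24.1 and 26, 27.6 and 27.2, and 25.1 and 31.7, with a difference of -0.12 ± 0.28 (95% interval -0.75 to 0.50, adjusted p = 0.99). Pkd2 stood at 57.4 and 54.5, 38.3 and 58.4, 69.0 and 61.2, and 50.7 and 53.3, with a difference of 0.08 ± 0.30 (-0.60 to 0.75, adjusted p = 0.99). A value per gene includes exons that Cre leaves in place and cells where Cre is not active, so these levels are no check of the deletion. Hoxb3os, the long noncoding RNA of the HoxB cluster that the study is about, had a difference of -0.24 ± 0.41 (-1.17 to 0.70, adjusted p = 0.99), with the interval leaving room for either sign. Across 10 HoxB cluster genes the median difference was -0.12 with 0 at an unadjusted p below 0.05, across 39 mTOR pathway genes 0.09 with 0, across 32 cilium genes -0.04 with 0, and across 19 polycystic kidney disease genes 0.12 with 1, Cys1 (cystin, a cilium protein, difference 0.76 ± 0.32, adjusted p = 0.56). Over all tested genes 8.25% had such a p, so lists of these sizes would hold few at that share, and the counts say little. The smallest unadjusted p of the HoxB list belonged to Hoxb5os (-0.47 ± 0.33, adjusted p = 0.87) and that of the mTOR list to Pik3cb, a PI3-kinase subunit (0.57 ± 0.29, adjusted p = 0.73). After rescaling without mitochondrially encoded genes, Cys1 was at 0.50 and Pik3cb at 0.30, and without Pkd2 knockout 1 Hoxb5os was at -0.19.

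**Figure D4:**
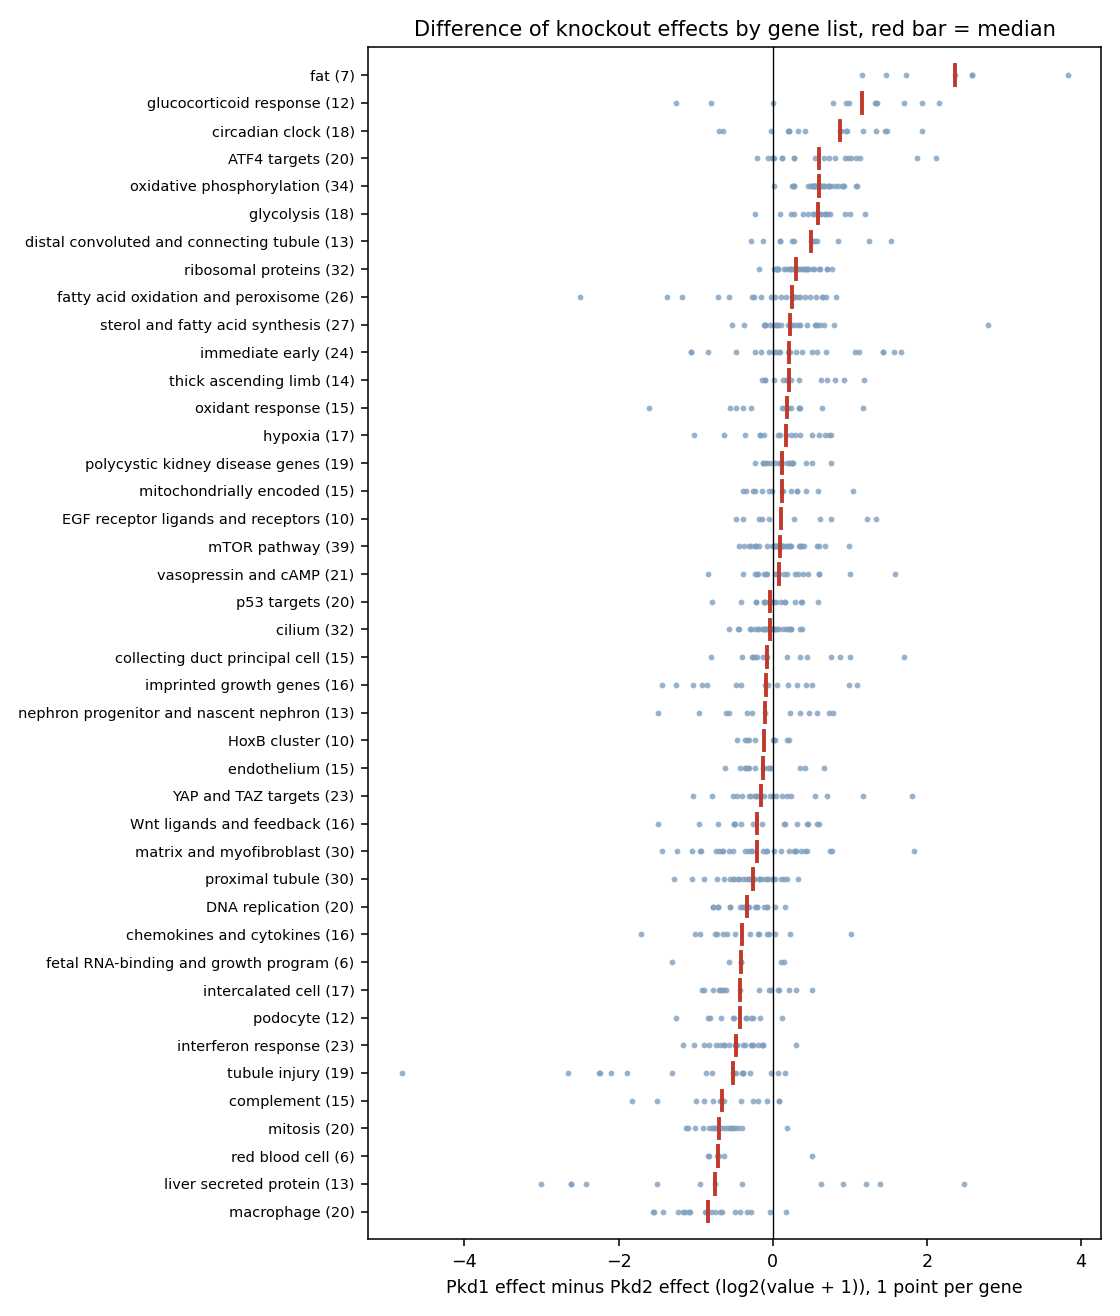
Differences (Pkd1 effect minus Pkd2 effect, log2(value + 1) scale, horizontal axis) of the tested genes in each of 42 gene lists with at least 5 tested members, 1 point per gene, with the number tested in brackets and a red bar at the median. Medians run from -0.84 for macrophage markers to 2.37 for fat markers, and those of the mTOR and cilium lists lie near 0.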

How the data were processed

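Trizol was used for extraction and TruSeq for the libraries, per the labels' protocols. Per the submitters' processing notes, build mm10 was used with STAR 2.4.2a, RSEM 1.2.22, Cufflinks 2.2.1, FastQC 0.11.2 and edgeR, with no role stated for any of them here. The kidney table deposited by the authors holds a scaled read signal, not whole counts; 92.8% to 95% of nonzero values per library were multiples of a single step (the value of 1 read) within 0.02 of a read. Recovered reads are least certain in Pkd1 control 1. The log2 fold changes and adjusted p-values deposited by the authors are quoted as such.

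The 14637 genes that reached a value of 1 in 2 or more libraries were fitted with limma 3.58.1 (trend, R 4.3.3) on log2(value + 1) in 1 fit of 4 groups (4 residual degrees of freedom, prior 4.77), and p-values were adjusted over all of them (Benjamini-Hochberg, threshold 0.05). The Pkd2 knockout titles carry "(WT)", but genotype and description give knockouts, and they were grouped so. The labels do not say that replicate numbers pair libraries, and the main fit did not use them so. Deviations of same-numbered libraries had correlations of -0.378 to 0.339 between groups.

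Named genes were those called, the 10 largest differences each way (mean at least 5, unadjusted p below 0.05, the same sign in all 16 combinations of libraries), the called members or else up to 2 with the smallest p in a described list, and Hoxb3os, Pkd1 and Pkd2. Members and the 47 lists were chosen with earlier results of these data known. Alternatives included edgeR 4.0.16 and DESeq2 1.42.0 on recovered reads.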

Additional observations from a re-analysis of the deposited data

Results flagged for a closer look

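Serpina10 was the gene for which the knockout effects of the models differed by the test of the difference itself. The difference was -3.0 (Pkd1 minus Pkd2, log2(value + 1) scale, limma Benjamini-Hochberg adjusted p = 0.0252). It was higher in both Pkd2 knockout libraries (34.1 and 27.3) than in both Pkd2 controls (3.69 and 2.96), while the Pkd1 groups overlapped between 6.49 and 8.24. The adjusted p was 0.0801 with a covariate for Xist, 0.0748 without the filter and 0.0556 with the replicate block, and the difference did not pass in 6 of the 8 fits that left out 1 library.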

How the results depend on the processing

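The count of called differences, 1, was 5 with a pseudocount of 0.1, with edgeR and with library weights, 8 with quantile scaling, 11 with mitochondrially encoded genes left out and values rescaled, 27 with a covariate for small structural RNA, 184 with DESeq2 (70 positive, 114 negative, all 5 edgeR calls among them) and 23 at an adjusted p below 0.1. It was 0 without the filter, with the replicate block and with a covariate for Xist, where 2126, 1088 and 1241 genes had an unadjusted limma p below 0.05. Leaving out 1 library gave 0 to 26. The cause was not tested. The rescaling without mitochondrial genes moved the median of all genes to -0.26, so each difference is to be read against it.

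The Serpina10 difference stayed negative in all 22 alternatives and passed in 13. It was -3.005 (adjusted p = 0.0748) without the filter, where more genes were tested, -3.005 (0.0556) with the replicate block and -3.003 (0.0801) with the Xist covariate, and -3.16 to -2.849 without single libraries (0.0136 to 0.30); a group left with 1 library borrows its spread from the others. The labels do not say whether same-numbered libraries shared a litter, day or animal.

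Of list medians, 36 of 1005 moved by more than the median SE of a single gene's difference in that list. A median could change sign within that limit. That of the proximal tubule list did, from -0.25 to at most 0.19 against a median SE of 0.46. Of the other named genes' values, 2543 kept direction and side of the threshold, 130 passed only under the alternative and 16 reversed. Reversals were Pvalb at -2.24 with edgeR and -2.39 with DESeq2, mt-Atp6 at -0.34 with quantile scaling and -0.15 with the small RNA covariate, Pkd2 at -0.0061 with quantile scaling and -0.21 after rescaling, and Pkd1 at 0.022 with the small RNA covariate. Without single libraries, differences ran from -0.076 to 0.81 for Tnnt3, -0.0081 to 2.08 for mt-Nd3, -0.22 to 1.07 for mt-Atp6, -0.22 to 0.38 for Pkd2, -0.34 to 0.095 for Pkd1 and -0.73 to 0.26 for Hoxb3os.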

Other observations

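Genes of antigen presentation by MHC class II, chosen after their values were seen, leaned toward the Pkd2 knockouts. H2-Ab1, a class II beta chain, was at 5.11 and 6.6 in the knockouts of the Pkd1 model and at 20.5 and 23.8 in those of the Pkd2 model, with all 4 controls between 5.58 and 7.19 (difference -1.62 ± 0.26, limma Benjamini-Hochberg adjusted p = 0.11). H2-Aa (-1.16 ± 0.27), H2-Eb1 (-1.25 ± 0.34), H2-DMb2 (-1.50 ± 0.25) and Cd74, the invariant chain (-1.21 ± 0.36), had the same sign. None passed the threshold in limma. In DESeq2 H2-Ab1 (-1.76, adjusted p = 0.0012) and H2-DMb2 (-3.08, adjusted p = 0.0024) did.

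The Wnt ligands Wnt9b, which is made by the collecting duct and induces nephrons, and Wnt4, which acts in the forming nephron, were higher in day 10 than in day 20 kidneys. Wnt9b stood at 8.04 and 6.14, 5.42 and 4.04, 0.884 and 1.1, and 2.89 and 3.05 (difference -1.49 ± 0.28, adjusted p = 0.15), and Wnt4 had a difference of -0.96 ± 0.23 (adjusted p = 0.23), -1.51 in DESeq2 (adjusted p = 0.047). Both rose with Pkd2 loss (adjusted p = 0.011 and 0.0039), to levels below those of the day 10 controls. In the list of 16 Wnt ligands and feedback genes, 3 were negative and 0 positive at an unadjusted p below 0.05, with a median of -0.20. The 13 tested nephron progenitor and nascent nephron genes, which include both ligands, did not lean either way. Of their differences 6 were positive and 7 negative, with 1 and 3 at an unadjusted p below 0.05 and a median of -0.10. With Pkd2 loss, 2 of the 13 were called higher and 3 lower.

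Further genes with an adjusted p below 0.1, chosen after their values were seen, were Lrrc31 (difference 1.95 ± 0.24), Slc16a14 (1.78 ± 0.28), Perm1 (1.64 ± 0.22) and Ank2 (1.44 ± 0.23) on the positive side and Col6a5 (-2.04 ± 0.32), Timd2 (-1.71 ± 0.23) and Serpine2 (-1.36 ± 0.21) on the negative side. DESeq2 gave larger sizes for Slc16a14 (2.87) and Col6a5 (-4.0), and a pseudocount of 0.1 for Perm1 (2.62).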
